A study of Homo sapiens with 10 samples.

Results

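MAFK, its close relative MAFG, the CNC transcription factors BACH1, NFE2L1, NFE2L2 and NFE2L3, and the NFE2L2 inhibitor KEAP1 were followed through RNA-seq of H1, a widely used human embryonic stem cell line. They were chosen by name, and each of the 7 had its own row among the 14785 rows of the expression table (13808 genes and 977 rows for transposable elements and transfer RNAs). The libraries formed 5 groups of 2. The groups received a short hairpin RNA (shRNA) against SMARCA4 (shSMARCA4), MAFK (shMAFK), E2F6 (shE2F6) or KDM1A (shKDM1A), or against luciferase as the control (shLUC). All groups shared the wild-type H1 background, the packaged shRNA virus and puromycin selection. The labels give no hairpin sequence, so it is not known whether more than 1 hairpin per gene was used. The series set out to test factors thought to act on chromatin at transposable elements. The labels call the replicates biological duplicates but do not say how the cultures were separated.

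Small MAF proteins such as MAFK and MAFG bind DNA through a basic leucine zipper but carry no activation domain. They act as pairs, with each other or with a CNC factor, and the CNC partner decides whether genes with an antioxidant response element are raised or repressed. NFE2L2 (NRF2) is the stress-responsive activator, held low by KEAP1, which hands it to a CUL3 ubiquitin ligase. NFE2L1 (NRF1) is made at the endoplasmic reticulum and raises proteasome subunit genes when proteasomes are short. NFE2L3 is a related membrane-anchored factor, and BACH1 is a heme-sensing repressor.

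The deposited values are normalized tag counts, whole numbers that the authors had already normalized in a way that is not stated. Library totals lay between 22836548 and 22855295 and the median row was 594 in every library, so read depth is unknown and no counting interval can be given. On the log2 scale, replicates of a group had an SD (pooled over the table) from 0.264 in shMAFK to 0.335 in shSMARCA4, and was 0.53 in shKDM1A. The 8 pluripotency markers summed to between 127861 and 155132 in 9 libraries and to 253298 in replicate 1 of shKDM1A. In that library POU5F1 alone stood at 148866, against 16615 to 51684 in the other 9, while SOX2 (6490) and LIN28A (41812) lay within the range of the others and DPPA4 (12828) was the lowest of the 10. Only 3 of 10 differentiation markers were in the table, with a sum of at most 384 outside shSMARCA4 and of 900 and 4269 in shSMARCA4. They went different ways there: MIXL1 had 1809 and 132 (20 and 14 in shLUC, limma adjusted p 0.0365), EOMES had 2430 and 724 (14 and 34, limma adjusted p 0.151), and KRT7 had 30 and 44 (218 and 296, limma adjusted p 0.00463). In the library with the sum of 384, KRT7 made up 360. The lowest row mean in the table was 19.3, and outside shSMARCA4 MIXL1 stood at 9 to 34 and EOMES at 0 to 34. Both rows may be in the table only through their shSMARCA4 values, so their rise there is not independent of their being listed.

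NFE2L1 was the member whose level differed among the knockdowns. It was high with the MAFK and KDM1A hairpins, low with the SMARCA4 hairpin, and intermediate in the luciferase control. MAFK itself was lower in shMAFK by an amount that did not exceed the replicate spread. Against shLUC, 0 of 28 member values (7 genes in 4 knockdowns) passed the threshold of 0.05 on the limma adjusted p, and 3 had an unadjusted p under 0.05, all 3 of them NFE2L1. Of all rows, the SMARCA4 hairpin gave calls for 4.18%, the MAFK hairpin for 0.0135%, the E2F6 hairpin for 0% and the KDM1A hairpin for 0.0271%. Rows with an unadjusted p under 0.05 made up 16.3%, 8.77%, 5.09% and 11.5% in the same order. In bulk RNA, a lower value from fewer cells expressing a gene and from less RNA per cell cannot be told apart.

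**Figure D1:**
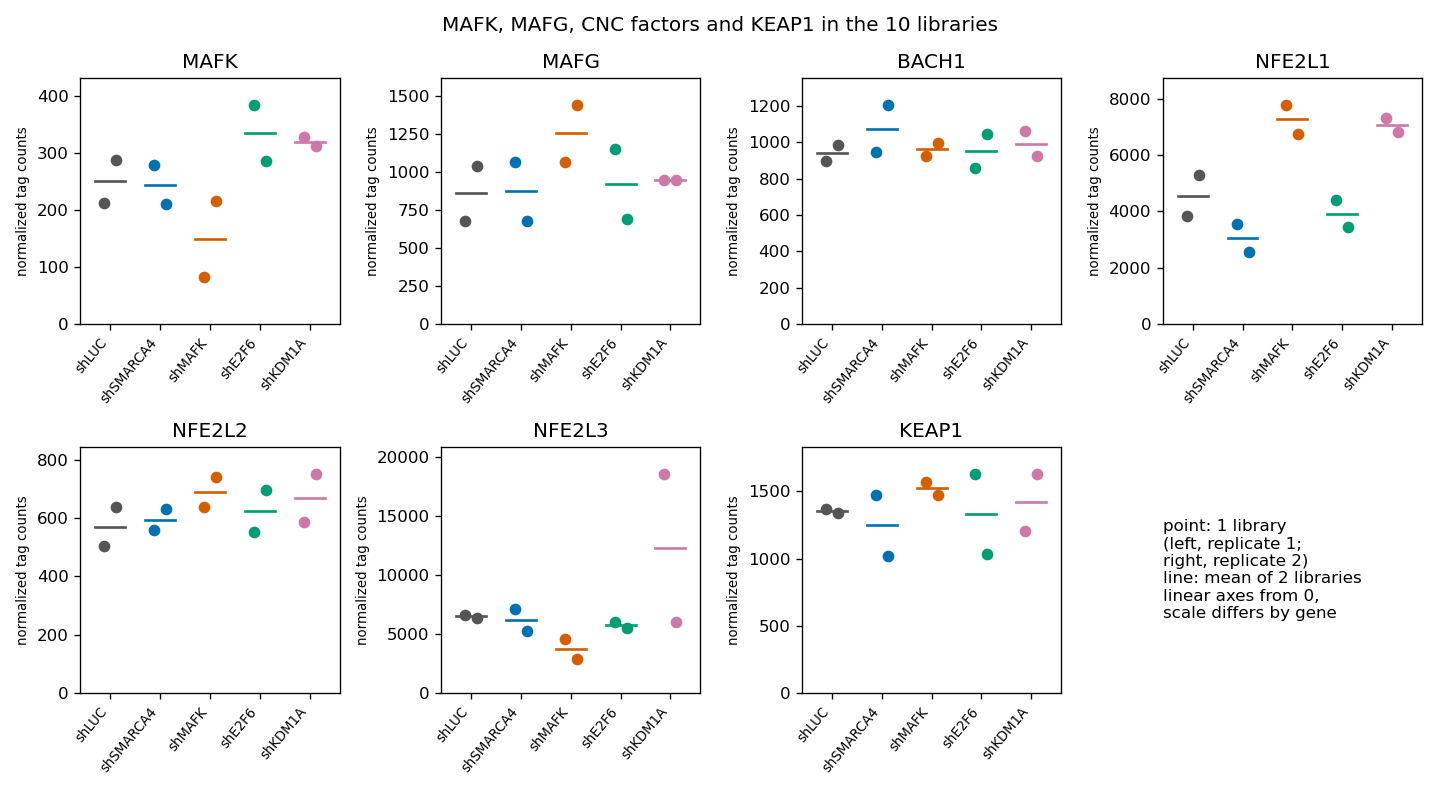
Normalized tag counts (y axis, linear, from 0) of the 7 genes in the 10 libraries, by hairpin (x axis). Each point is 1 library and each line the mean of 2; NFE2L1 stands at 6746 to 7784 in shMAFK and shKDM1A and at 2555 to 5300 in the other 6 libraries, and NFE2L3 reaches 18607 in 1 shKDM1A library.

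MAFK (ENSG00000198517, chromosome 7, 1530714 to 1543043, GRCh38, plus strand) is the small MAF protein that the hairpin targets. Its values were 82 and 216 in shMAFK and 212 and 288 in shLUC. They were 278 and 210 in shSMARCA4, 384 and 286 in shE2F6, and 327 and 312 in shKDM1A. The library with 82 was the lowest of the 10, while the other shMAFK library lay among the controls, with 2 of the 8 other libraries below it. The group mean was 149 ± 94.8 (SD, n = 2), or 59.6% of the 250 ± 53.7 in shLUC. The log2 change was -0.89 (SE 0.39, 95% interval -1.78 to 0.00), with a limma adjusted p of 0.572, and the 2 groups overlapped.

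The 4 groups without the MAFK hairpin allow a wider comparison of MAFK than the control pair alone. Against the mean of those groups, the log2 change of MAFK in shMAFK was -1.08 (SE 0.31, 95% interval -1.78 to -0.37), with a limma adjusted p of 0.146. In this comparison 1.33% of rows were called. The log2 change was -1.77 without the shMAFK library at 216 and -0.38 without the one at 82, so 1 library set its size. Set directly against the other knockdowns, it was -1.31 (SE 0.39, limma adjusted p 0.194) against shE2F6 and -1.26 (SE 0.39, limma adjusted p 0.294) against shKDM1A, with no overlap of libraries in either (25.7% and 18.7% of all rows were wholly lower there). Against shSMARCA4 the libraries overlapped, and the log2 difference was -0.85 (SE 0.39, limma adjusted p 0.254). This last difference was -1.55 without replicate 2 of shMAFK and -0.16 without replicate 1, each from the 1 shMAFK library that was left. A two-sided exact permutation test of shMAFK against the other 8 libraries gave p = 0.0667. Of 45 assignments, the smallest share in 1 tail is 0.0222.

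MAFG (ENSG00000197063, chromosome 17, 81918270 to 81927714, minus strand), the other small MAF protein in the table, had a higher mean in shMAFK than in shLUC, and MAFK a lower one. Over the 10 libraries, however, log2 values of MAFK and MAFG gave a Pearson r of -0.01 (Spearman rho 0.22). The MAFG values were 1068 and 1444 in shMAFK against 680 and 1040 in shLUC, and 678 to 1152 in the other knockdowns. The shMAFK libraries lay above both controls but not above every other library. The log2 change against shLUC was 0.56 (SE 0.32, limma adjusted p 0.701), with a 95% interval from -0.16 to 1.28. The third small MAF gene, MAFF, is not analysed here.

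The ratio of MAFK to MAFG within a library, a measure chosen after the values were seen, was 0.0768 and 0.15 in shMAFK. It was 0.312 and 0.277 in shLUC and lay between 0.26 and 0.412 in the other 6 libraries. Both shMAFK libraries therefore had the lowest ratios of the 10. In the one with MAFK at 216, among the controls, MAFG stood at 1444, its highest value of the 10 libraries. How often other pairs of genes split in this way was not counted. Both tag counts are uncorrected for length here, so the ratio compares libraries and is not a ratio of molecules. A scaling of the whole library would leave the ratio alone, but a normalization that moves high and low values differently need not. The normalization used is not stated, and after sorting, 80.3% of the values are the same in all libraries.

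NFE2L1 (ENSG00000082641, chromosome 17, 48048329 to 48061487, plus strand), the activator of proteasome genes, had 7784 and 6746 normalized tag counts in shMAFK and 7313 and 6828 in shKDM1A. It had 3820 and 5300 in shLUC, 4390 and 3429 in shE2F6, and 3550 and 2555 in shSMARCA4. The 4 libraries of shMAFK and shKDM1A lay above all 6 others, a split for which the share of all rows was not counted. The group means fell in the order shMAFK (7265 ± 734, SD, n = 2), shKDM1A (7070 ± 343), shLUC (4560 ± 1047), shE2F6 (3910 ± 680) and shSMARCA4 (3052 ± 704). Neighbours in this order overlapped, except shKDM1A and shLUC.

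The moderated F-test over the 5 groups called 1 of the 7 members, NFE2L1, with a limma adjusted p of 0.0315, where 5.07% of all rows were called. Its level was 2.41-fold higher in shMAFK than in shSMARCA4 (log2 difference 1.27, SE 0.22, 95% interval 0.76 to 1.77, limma adjusted p 0.011), a comparison in which 7.76% of rows were called. It was lower in shSMARCA4 than in shKDM1A by a log2 difference of -1.23 (SE 0.22, limma adjusted p 0.0145), where 6.87% of rows were called. These were the 2 calls among 77 comparisons of a member between groups. The remaining direct comparisons called 3.55% of rows (shSMARCA4 against shE2F6), 0.487% (shMAFK against shE2F6), 0.129% (shE2F6 against shKDM1A) and 0.0406% (shMAFK against shKDM1A). Against shLUC the log2 change of NFE2L1 (SE 0.22 each) was 0.69 for shMAFK, 0.65 for shKDM1A, -0.58 for shSMARCA4 and -0.21 for shE2F6. The limma adjusted p-values were 0.378, 0.372, 0.23 and 1. The control libraries, at 3820 and 5300, differed from each other by more than the shKDM1A pair did. Between shMAFK and shKDM1A the log2 difference was 0.04, with a 95% interval from -0.47 to 0.54.

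The call of the F-test did not hold in every fit with 1 library left out. Such a fit also changes the adjustment over all rows and leaves fewer degrees of freedom. A lost call is therefore not a measure of how far NFE2L1 itself moved. The limma adjusted p of NFE2L1 rose to 0.106 and 0.0955 without replicate 1 or 2 of shMAFK, 0.0679 and 0.11 without replicate 1 or 2 of shSMARCA4, 0.0516 and 0.0655 without replicate 1 or 2 of shE2F6, and 0.0521 without replicate 1 of shLUC. The difference between shMAFK and shSMARCA4 ran from 1.03 to 1.50 when 1 library was left out. Its limma adjusted p was 0.0857 without replicate 1 and 0.0678 without replicate 2 of shMAFK, and 0.0803 without replicate 2 of shSMARCA4. The difference between shSMARCA4 and shKDM1A ran from -1.47 to -0.99, with a limma adjusted p of 0.0961 without replicate 2 of shSMARCA4. It was also lost in a fit of only those groups (0.106) and with a weight for each group (0.171).

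**Figure D2:**
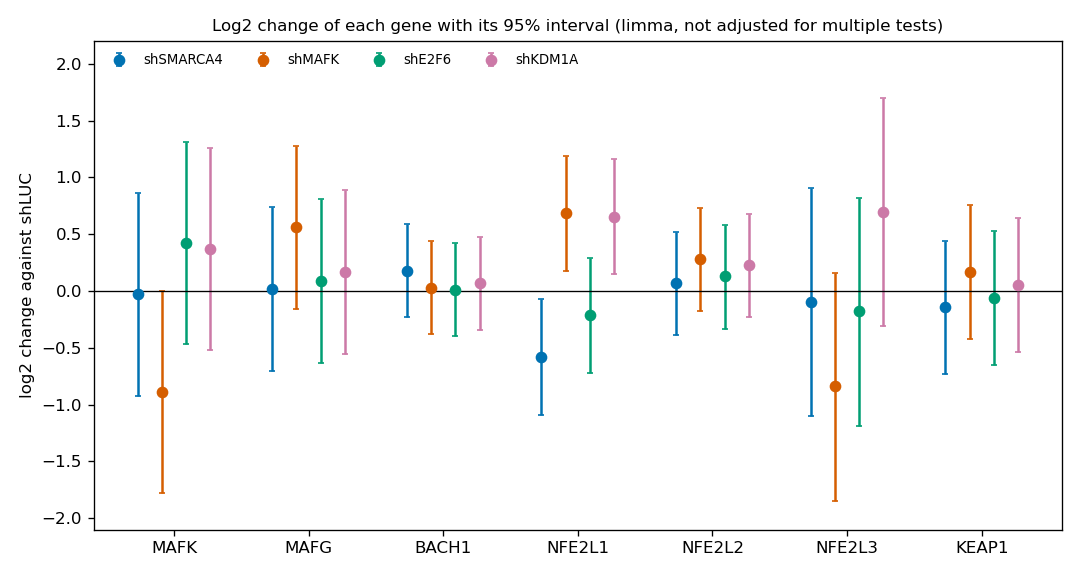
Log2 change against shLUC (y axis) of each gene (x axis) in the 4 knockdowns, as points with 95% limma intervals that are not adjusted for the number of tests. The intervals of NFE2L1 in shSMARCA4, shMAFK and shKDM1A do not reach 0, and the estimates of NFE2L1 run from -0.58 to 0.69.

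The RefSeq promoter table (GRCh38.p14) held 11 windows, each 250 bases before to 50 after a transcript start, for 6 of the 7 members, without MAFK. The stretch before the first annotated NFE2L1 transcript is shown because NFE2L1 was the member that moved. It covers chr17:48048109-48048328 on the plus strand, and capitals mark CCAAT or its reverse complement ATTGG.

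NFE2L1 promoter: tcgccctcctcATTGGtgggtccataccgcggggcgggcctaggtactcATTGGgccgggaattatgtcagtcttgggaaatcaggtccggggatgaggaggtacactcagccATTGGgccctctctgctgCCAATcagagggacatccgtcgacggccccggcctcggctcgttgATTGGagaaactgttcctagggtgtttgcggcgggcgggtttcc

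It held 5 such matches, 1 on the gene's strand and 4 on the other, a motif that was searched after the sequence was seen. Of 35116 RefSeq windows, 34.6% held at least 1 match and 0.359% held 5 or more. The other 10 member windows held 0.

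The core of the antioxidant response element was searched as TGACNNNGC and an arm of the MAF recognition element as TGCTGA, both on either strand. The element that MAF and CNC pairs bind can hold both, so matches may overlap. Of all windows, 13.3% held the former and 17.3% the latter. The member sites are shown, with capitals for the matched bases and 8 bases on each side, read along the gene's strand.

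KEAP1, TGACNNNGC: ttttattgTGACACGGCgggcgccc
KEAP1, TGACNNNGC on the other strand: ccggctctGCTTAGTCAtggtgacc
NFE2L1, TGCTGA: cgggatggTGCTGAggtgcagg
NFE2L3, TGCTGA on the other strand: cttggcttTCAGCAaggatggc
BACH1, TGCTGA on the other strand: gtgacacaTCAGCAccgccctc

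The KEAP1 sites lie at chr19:10502809-10502833 and chr19:10502786-10502810 on the minus strand, with their first matched bases 54 and 31 bases before that start. The NFE2L1 site lies at chr17:48048534-48048555 before the later NFE2L1 start, the NFE2L3 site at chr7:26151983-26152004 and the BACH1 site at chr21:29299339-29299360. The MAFG and NFE2L2 windows held no match to either motif, which says only that these letters are not in those windows.

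NFE2L2 (ENSG00000116044, chromosome 2, 177227595 to 177392697, minus strand), the activator that KEAP1 restrains, varied little. The control libraries had 504 and 638 and the shMAFK libraries 639 and 741. The other knockdowns had 560 and 630 (shSMARCA4), 551 and 697 (shE2F6), and 587 and 752 (shKDM1A). The shMAFK libraries lay just above both controls, by 1 tag count in the closest pair. Its log2 changes against shLUC ran from 0.07 in shSMARCA4 to 0.28 in shMAFK (SE 0.20 each), with limma adjusted p-values from 0.63 to 1. The 95% interval was -0.39 to 0.52 in shSMARCA4 and -0.18 to 0.73 in shMAFK.

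NFE2L3 (ENSG00000050344, chromosome 7, 26152240 to 26187125, plus strand), the related factor whose row mean exceeded that of 96.8% of rows, was low in shMAFK. Its values there were 4612 and 2870, the lowest of the 10 libraries. They were 6647 and 6408 in shLUC, 7097 and 5235 in shSMARCA4, 6012 and 5498 in shE2F6, and 18607 and 6012 in shKDM1A. Against the mean of the other 4 groups the log2 difference of shMAFK was -0.95 (SE 0.35, limma adjusted p 0.252), and against shLUC it was -0.84 (SE 0.45, limma adjusted p 0.668). NFE2L3 was the 1 member of 7 whose shMAFK libraries both lay below all 8 others, as 4.8% of all rows did.

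The value of 18607 in 1 shKDM1A library set that group's mean of 12310 ± 8906 (SD, n = 2). The log2 change of NFE2L3 in shKDM1A was 0.70 (SE 0.45, limma adjusted p 0.527). It was -0.12 without replicate 1 and 1.51 without replicate 2, each from the 1 shKDM1A library that was left. The same library, replicate 1, held the high POU5F1 value, and whether the high values are related was not tested. The next lower value in that library was 17675 and 113 rows lay above it.

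NFE2L1 and NFE2L3 lay on opposite sides of the controls in shMAFK. The ratio of NFE2L1 to NFE2L3 tag counts, chosen after the values were seen, was 1.69 and 2.35 in shMAFK and 0.575 and 0.827 in shLUC. The shSMARCA4 libraries had 0.5 and 0.488, the shE2F6 libraries 0.73 and 0.624, and the shKDM1A libraries 0.393 and 1.14. The shMAFK ratios were the highest of the 10. Both genes had already been seen to lie apart there when the ratio was chosen, so this is not further evidence.

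BACH1 (ENSG00000156273, chromosome 21, 29194071 to 29630751, plus strand), the repressor that competes with the activators for small MAF partners, was the steadiest member. Its values ran from 856 in shE2F6 to 1206 in shSMARCA4, a 1.41-fold range over 10 libraries. In shMAFK it had 926 and 995, against 897 and 987 in shLUC. The shMAFK change of BACH1 was 0.03 (log2, SE 0.18, limma adjusted p 0.996), with a 95% interval from -0.38 to 0.44. The largest of its 4 changes against shLUC was 0.18 (SE 0.18) in shSMARCA4.

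BACH2, a relative of BACH1 best known in lymphocytes, had a low level in these cells. It had 194 and 214 in shMAFK, 90 and 122 in shLUC, 54 and 52 in shSMARCA4, 86 and 65 in shE2F6, and 110 and 175 in shKDM1A. Its shMAFK libraries were the highest of the 10, as those of 5.14% of rows were, and it differed over the 5 groups (limma adjusted F-test p 0.0281). It was higher in shMAFK than in shSMARCA4 by 1.92 (SE 0.29, limma adjusted p 0.00588) and than the mean of the other 4 groups by 1.22 (SE 0.23, limma adjusted p 0.0446). Set against shLUC alone, BACH2 was higher by 0.95 (SE 0.29, limma adjusted p 0.347). The limma adjusted p of the comparison with the other 4 groups was 0.0518 with a replicate block. It was above 0.05 without any 1 library of shLUC, shSMARCA4, shMAFK or shE2F6, at 0.0721 to 0.576, the highest without replicate 2 of shMAFK.

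KEAP1 (ENSG00000079999, chromosome 19, 10486120 to 10503741, minus strand), the redox sensor that marks NFE2L2 for degradation, had 1572 and 1476 in shMAFK and 1368 and 1340 in shLUC. The other knockdowns had 1476 and 1020 (shSMARCA4), 1631 and 1036 (shE2F6), and 1208 and 1627 (shKDM1A). The spread within those pairs was wider than any difference between group means. Its log2 changes against shLUC ran from -0.14 to 0.17 (SE 0.26 each, limma adjusted p 0.88 to 1).

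Counted by overlap, 4 of 7 members in shMAFK lay wholly above both controls (MAFG, NFE2L1, NFE2L2 and KEAP1), as 23.8% of all rows did, and 1 lay wholly below (NFE2L3), as 25.3% did. In shKDM1A 2 of 7 lay above (MAFK and NFE2L1, against 17.9% of rows) and 0 below (20.9%). In shSMARCA4 0 lay above (25.6%) and 1 below (NFE2L1, 25.4%). In shE2F6 0 lay above (20.3%) and 1 below (NFE2L3, 20.4%). The median log2 change of the 7 against shLUC was 0.17 for shMAFK, 0.23 for shKDM1A, -0.03 for shSMARCA4 and 0.01 for shE2F6. Over all rows it was between -0.02 and 0.01 in each.

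Levels were compared between genes per kilobase of exon, on annotated exon lengths from 3761 bases (KEAP1) to 7717 bases (BACH1). The median over 10 libraries was 1415 tag counts per kilobase for NFE2L3, 832 for NFE2L1, 378 for KEAP1, 191 for MAFG, 125 for BACH1, 106 for NFE2L2 and 63.3 for MAFK. NFE2L3 and NFE2L1 overlapped, with 675 to 4379 and 439 to 1336 per kilobase. KEAP1 (271 to 434) and MAFG (130 to 277) overlapped in their extremes, as did MAFG with BACH1 (111 to 156) and BACH1 with NFE2L2 (84.3 to 126). MAFK (18.4 to 86.1) was the lowest and overlapped only NFE2L2. The authors' normalization and the use of all annotated exons both bear on this order.

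Members were then compared as patterns over the 10 libraries, which is a description, since libraries of a group are not independent of each other. Of the 21 pairs of members, the correlation of log2 values farthest from 0 was that of BACH1 with KEAP1 (Pearson r -0.86, Spearman rho -0.83), the pair being picked for its size. MAFG with KEAP1 gave r 0.70 (rho 0.71) and MAFG with NFE2L1 gave 0.63 (rho 0.41). MAFK gave r from -0.23 with NFE2L1 to 0.41 with NFE2L3. BACH1 varied 1.41-fold and KEAP1 1.6-fold over the libraries, so their relation concerns small differences. Differences between replicates of a group enter these correlations. In shSMARCA4, replicates 1 and 2 had 1476 and 1020 for KEAP1, 944 and 1206 for BACH1, and 1070 and 678 for MAFG. In shE2F6 they had 1631 and 1036, 856 and 1046, and 1152 and 694 in the same order. The correlations are therefore not relations between knockdowns alone.

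Among 14735 other rows with a mean of at least 50, the 3 whose pattern was most like that of NFE2L1 were PSPH (r 0.99, rho 0.98), CARS (r 0.97, rho 0.96) and JDP2 (r 0.97, rho 0.95). Without the 2 libraries farthest from the NFE2L1 median, r was 0.99, 0.94 and 0.97. PSPH encodes the phosphatase of the last step of serine synthesis, CARS a cysteine transfer RNA synthetase and JDP2 a basic leucine zipper repressor. PSPH had 1958 and 1650 in shMAFK, 1760 and 1639 in shKDM1A, 843 and 1340 in shLUC, 1052 and 743 in shE2F6, and 887 and 626 in shSMARCA4. JDP2 had the wider range: 660 and 492 in shMAFK, 810 and 494 in shKDM1A, 50 and 318 in shLUC, 148 and 72 in shE2F6, and 50 and 38 in shSMARCA4. As with NFE2L1, shMAFK exceeded shSMARCA4 for PSPH (log2 difference 1.27, SE 0.27, limma adjusted p 0.0238), CARS (1.34, SE 0.31, limma adjusted p 0.0315) and JDP2 (3.68, SE 0.72, limma adjusted p 0.0161). These rows were picked for likeness, so their differences are not further evidence about NFE2L1.

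**Figure D3:**
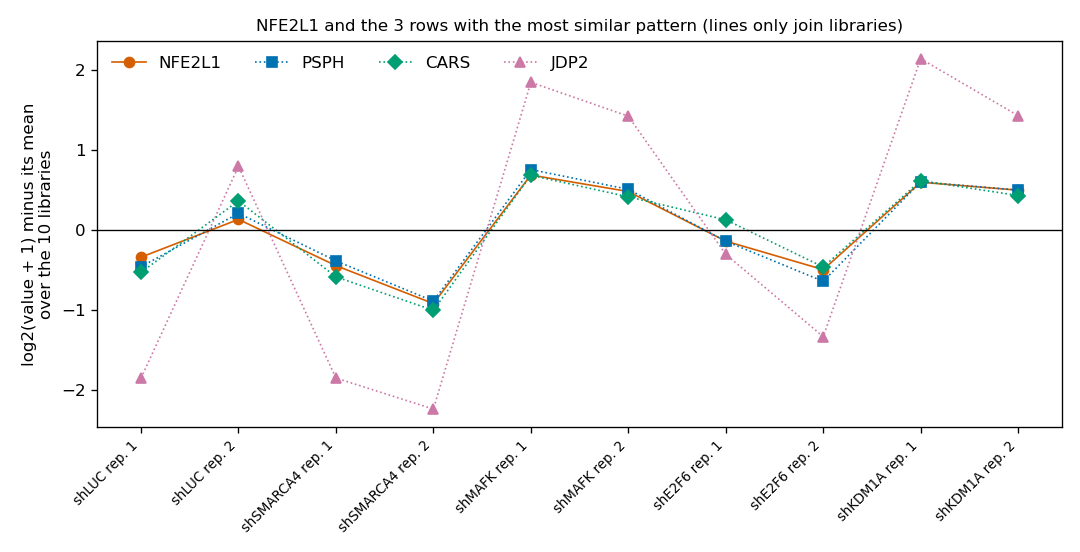
Log2(value + 1) of NFE2L1, PSPH, CARS and JDP2 minus each gene's mean over the 10 libraries (y axis), by library (x axis); lines only join points of a gene. All 4 genes are high in the shMAFK and shKDM1A libraries and low in shSMARCA4, and JDP2, with 38 to 810 tag counts, has the widest range.

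Rows close to the other members were found at similar or lower r. For NFE2L3 they were C7orf26 (r 0.98), ANTXR2 (0.97) and FANCF (0.97), but r for FANCF was 0.63 without the 2 farthest libraries, 1 of which is the shKDM1A library at 18607. For MAFK they were AP000894.4 (r 0.87), SLC35F2 (0.84) and SLC45A4 (0.81), with r of 0.56, 0.78 and 0.20 without the 2 farthest libraries, so that 2 of these 3 rested mainly on those libraries. The closest were ASB1 (r 0.94) for MAFG, TMEM219 (0.94) for BACH1, GSTO2 (0.95) for NFE2L2 and PPIF (0.94) for KEAP1.

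Genes that make, degrade or assist the CNC factors were taken as a list of 17, all in the table. Of these, 0 passed the limma threshold against shLUC in any knockdown. At an unadjusted p under 0.05, 1 was higher and 0 lower in shMAFK (4.27% and 4.49% of rows) and 1 and 1 in shKDM1A (5.85% and 5.61%). With the SMARCA4 hairpin it was 0 and 1 (7.78% and 8.53%), and with the E2F6 hairpin 0 and 0 (2.55% and 2.54%). The median log2 change was 0.01 in shMAFK, against -0.00 over all rows. SQSTM1, an autophagy receptor that binds KEAP1, had 3507 and 4228 in shMAFK, 3151 and 2712 in shKDM1A, 2880 and 2022 in shE2F6, 2072 and 1646 in shSMARCA4, and 1866 and 2061 in shLUC. Its shMAFK libraries were the highest of the 10, as those of 5.14% of all rows were. The log2 change of SQSTM1 in shMAFK against shLUC was 0.97 (SE 0.21, limma adjusted p 0.174). Against shSMARCA4 the SQSTM1 level in shMAFK was higher by 1.06 (SE 0.21, limma adjusted p 0.0184). CUL3, the scaffold of the ligase that KEAP1 serves, had log2 changes from -0.16 to -0.03.

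Of 25 genes known as targets of the antioxidant response element, 22 were in the table. In shMAFK 0 passed the limma threshold against shLUC, with 3 higher and 1 lower at an unadjusted p under 0.05 (4.27% and 4.49% of all rows). The median was -0.02. In shSMARCA4 1 was higher and 1 lower, where 4.18% of all rows were called. PIR, an iron-binding nuclear protein, rose from 292 and 242 to 605 and 524 (log2 change 1.08, SE 0.17, limma adjusted p 0.00976). SRXN1, which repairs oxidized peroxiredoxins, fell from 568 and 534 to 347 and 294 (log2 change -0.78, SE 0.16, limma adjusted p 0.027). In shE2F6 0 passed, with 5 higher and 0 lower at an unadjusted p under 0.05, against 2.55% and 2.54% of all rows. In shKDM1A 0 passed, with 1 higher and 1 lower, against 5.85% and 5.61%.

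The targets named whatever their change differed in which libraries were high. SLC7A11, the cystine importer, had 3367 and 2832 in shMAFK and 2156 and 3128 in shKDM1A, against 418 and 1728 in shLUC and 592 and 459 in shSMARCA4. The control pair was far apart, and the log2 change of 1.86 in shMAFK (SE 0.53) had a limma adjusted p of 0.297. Between shMAFK and shSMARCA4 the log2 difference was 2.56 (SE 0.53, limma adjusted p 0.0201). HMOX1, the heme oxygenase that BACH1 represses, had 490 and 522 in shSMARCA4 and 488 and 430 in shE2F6, against 238 and 228 in shLUC, 297 and 183 in shMAFK, and 136 and 249 in shKDM1A. Its limma adjusted p against shLUC was 0.0813 in shSMARCA4, 0.884 in shE2F6, 1 in shMAFK and 0.63 in shKDM1A. HMOX1 was higher in shSMARCA4 than in shKDM1A by 1.45 (SE 0.30, limma adjusted p 0.0237). GCLM, a subunit of the glutathione-synthesizing ligase, was above both controls in all 8 knockdown libraries, at 322 to 482 against 254 and 314. Its log2 changes of 0.37 to 0.61 had limma adjusted p-values from 0.153 to 0.949. These changes all share the same control pair, and the share of all rows with both controls lowest was not counted. NQO1, a quinone reductase, and TXNRD1, a thioredoxin reductase, had log2 changes of -0.05 (SE 0.21) and 0.24 (SE 0.23) in shMAFK. In shSMARCA4, shKDM1A and shE2F6 the changes were -0.20, 0.36 and 0.56 for NQO1 and -0.01, 0.18 and 0.05 for TXNRD1. NQO1 had 610 and 518 in shE2F6 against 408 and 356 in shLUC (limma adjusted p 0.939).

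The proteasome list held 34 genes, all in the table, whose transcription NFE2L1 is known to raise when proteasome activity is short. In shMAFK, where NFE2L1 was above both controls, 5 of the 34 had a positive and 29 a negative log2 change. The median was -0.15, against -0.00 over all rows, and 0 passed the limma threshold or an unadjusted p under 0.05. In shKDM1A 8 were positive and 26 negative (median -0.13, against -0.02 over all rows). In shSMARCA4, where NFE2L1 was lowest, 15 were positive and 19 negative (median -0.05), with 1 higher and 1 lower at an unadjusted p under 0.05. In shE2F6 the median was -0.04. The shMAFK libraries lay wholly below the controls for 16 of 34 genes, against 25.3% of all rows, and wholly above for 3 (23.8%). In shKDM1A 12 lay wholly below (20.9%) and 0 above (17.9%). In shSMARCA4 it was 6 below (25.4%) and 5 above (25.6%), and in shE2F6 6 below (20.4%) and 5 above (20.3%). Whether these counts are related to the NFE2L1 level was not tested. In the direct comparison of shMAFK with shSMARCA4, where 7.76% of all rows were called, 1 of the 34 was called. This was PSMD2, with 4526 and 4390 in shMAFK, 6578 and 7210 in shSMARCA4, and 5300 and 4906 in shLUC (log2 difference -0.63, SE 0.13, limma adjusted p 0.0225). Set against shLUC, PSMD2 had a log2 change of 0.43 in shSMARCA4 (limma adjusted p 0.122) and -0.19 in shMAFK (limma adjusted p 0.79). The 34 genes were measured in the same libraries, so these counts are not 34 independent observations.

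**Figure D4:**
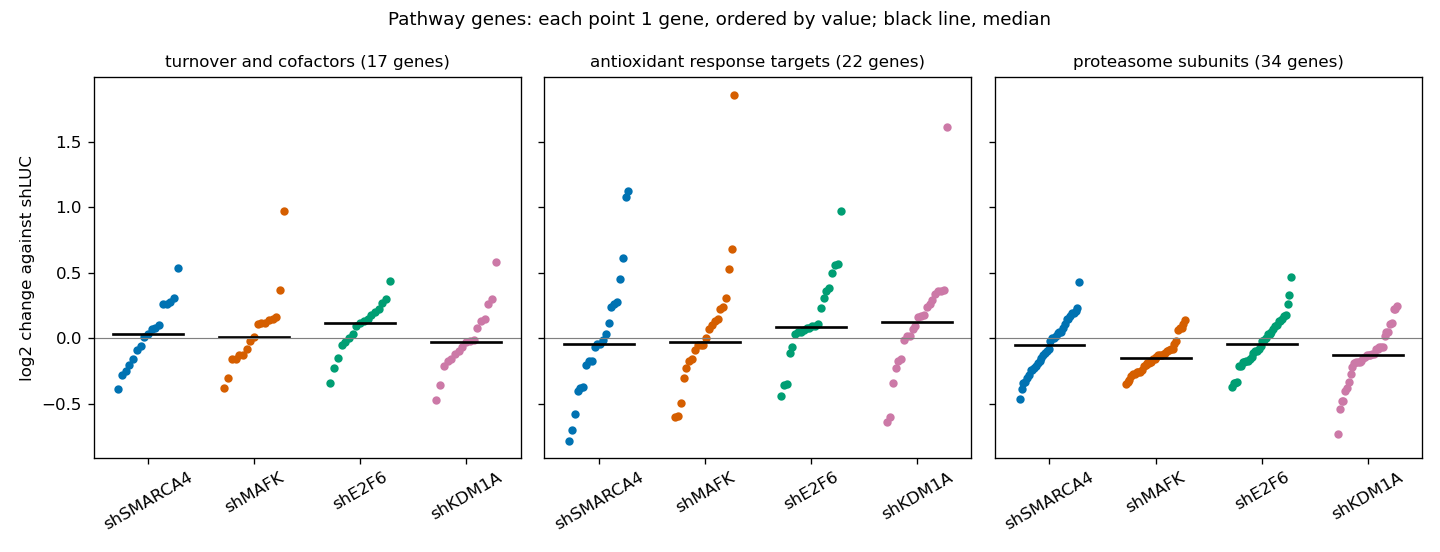
Log2 change against shLUC (y axis) in the 4 knockdowns (x axis) for 3 lists of pathway genes; each point is 1 gene, ordered by value within a column, and the black line is the median. The medians lie between -0.15 and 0.13, and the highest point is SLC7A11 in shMAFK at 1.86.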

How the data were processed

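RNA-seq of 10 libraries was used, from 5 groups of 2 named in the sample titles. The submitters' processing notes name STAR and STARsolo and the build hg38. The counter, annotation and normalization are not given in the sources used here. The deposited values, treated as scores, are whole-number normalized tag counts, and after sorting, 80.3% of them are the same in all libraries. They are not raw counts, so no count model was used, and a difference in total RNA cannot be seen.

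Values were taken as log2(value + 1), on which scale fold changes of low rows are understated. A minimum row mean of 10 applied and removed 0 rows. Group means were compared with limma 3.58.1 in R 4.3.3 (two-sided, with a trend of variance on mean) in a single model of 10 libraries, with 5 residual degrees of freedom and Benjamini-Hochberg adjustment over 14785 rows at a threshold of 0.05. The p-values measure the spread between these libraries. The script was tested on simulated data. Gene positions and exon lengths are from GENCODE release 29 and promoter sequences from RefSeq (GRCh38.p14).

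The members, lists, tests and alternatives were chosen with earlier results of these data known. Named were the 7 members, 8 list genes fixed by name, list genes past the threshold against shLUC, and the 3 rows most correlated with each member. BACH2, PSMD2 and the ratios were chosen after their values were seen. Columns not mapped to a sample numbered 0. How reads were shared between paralogs or strands is not stated.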

Additional observations from a re-analysis of the deposited data

How the results depend on the processing

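Against shLUC, 0 members passed under all alternatives but 1: without shKDM1A replicate 2, NFE2L3 passed in shKDM1A (0 to 1 members over the left-out libraries). The log2 change of MAFK in shMAFK ran from -1.58 to -0.19 (limma adjusted p 0.197 to 1 over 22 alternatives). Of 1652 refitted member changes, 58 changed sign. The 5-group F-test called 0 to 2 members when 1 library was left out, and its limma adjusted p for NFE2L1 ran from 0.0136 to 0.11. For shMAFK against shSMARCA4 the count was 0 to 1 (NFE2L1 from 1.03 to 1.50), the member called without shMAFK replicate 2 being MAFK (-1.55) and not NFE2L1, for shSMARCA4 against shKDM1A 0 to 2 (NFE2L1 from -1.47 to -0.99), for shE2F6 against shKDM1A 0 to 2, and for shMAFK against shKDM1A 0 to 1. For shMAFK against the other 4 groups it was 0 to 2. With a weight per group the count was 1 for shMAFK against shE2F6, 2 for shMAFK against the other 4 groups and 0 for shSMARCA4 against shKDM1A, where the log2 difference of NFE2L1 stayed at -1.23. It was also 0 in a fit of only those 2 groups (-1.23). The cause was not tested. A replicate left alone was assumed to vary like the other groups.

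Equal replicate numbers were treated as names only. Over the 10 pairs of groups, correlations of replicate deviations ran from -0.05 to 0.106, except for 0.337 between shSMARCA4 and shE2F6. Those groups may therefore share a difference between replicates, which the main fit ignores. A block over all groups does not model a difference that only some groups share. With the number as a replicate block, the F-test called 1 member (NFE2L1, limma adjusted p 0.0409) and the 4 comparisons with shLUC called 0.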
